A study of Drosophila melanogaster with 8 samples.

Results

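The Rab genes encode small GTPases that mark the membranes of the cell and recruit the motors, tethers and enzymes that move and fuse vesicles. A Rab is switched on by a guanine nucleotide exchange factor (GEF), switched off by a GTPase activating protein (GAP), carried between membranes by a GDP dissociation inhibitor, and held in the membrane by prenyl groups that the Rab geranylgeranyl transferase attaches. Rab5 is known for the early endosome, Rab7 for the late endosome, Rab11 for the recycling endosome, Rab1 for traffic between the endoplasmic reticulum and the Golgi, and Rab3 for synaptic vesicles. Members were chosen by symbol alone, and 31 of the 14210 genes in the files carry a symbol that begins with Rab followed by a number, by X and a number, or by a hyphen and RP. The reference names Rab-RP4 as Rab18 and Rab-RP3 as Rab19. Another 2 Rab genes stand in the files under older names, ltd (Rab32) and chrw (RabX1), and were not members.

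The RNA is polyadenylated RNA of 2 cell types sorted by flow cytometry from brains of Drosophila melanogaster larvae, late in the third instar: neuroblasts, which are neural stem cells, and neurons, their differentiated daughters. Both cell types came from wild type animals that carried asense-Gal4 and UAS-stingerGFP, so the GFP that marked the sorted cells was driven by a neural precursor enhancer in both groups, and the neurons were daughters of cells with that driver. Eggs were laid over 24 h and larvae were kept for 5 days at 25 degrees. The 5 neuroblast libraries make 3 replicates and the 3 neuron libraries make 2, since neuroblasts 2 and 3 and neuron 1 have a technical pair of libraries. The labels do not tie replicates to animals or to sorts, and p-values therefore measure the spread between these samples alone, which may be technical. Levels are in FPKM, fragments per kilobase of transcript scaled to the mapped fragments of the library, so that genes can be compared per length. In bulk RNA, fewer cells of a kind and less RNA per cell cannot be told apart.

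The sort was checked with marker genes. All 9 neuroblast markers were higher in neuroblasts and all 9 neuron markers higher in neurons with limma at an adjusted p under 0.05. The summed level of the 9 neuron markers was 124.5 FPKM in neuroblast 1, 66.4 in neuroblast 2 and 12.5 in neuroblast 3, against 695 and 907 FPKM in the neurons, so the neuroblast replicates differed in their level of neuron markers. The 9 neuroblast markers summed to 1850 to 1978 FPKM in neuroblasts and to 78.0 and 130.2 in neurons. Of 7 glial markers 5 were higher in neurons, among them repo at 0.207 to 1.06 FPKM in neuroblasts and 7.97 and 9.66 in neurons, and the part of glial RNA in the results was not tested. The list summed to 145.6 to 228 FPKM in neuroblasts and to 97.1 and 132 in neurons, mostly through nrv2 and Eaat1. The 4 hemocyte markers summed to at most 0.695 FPKM in neuroblasts and to 4.51 and 5.25 in neurons, and the 4 markers of trachea and fat body to at most 0.561 and 3.20. Depth was lowest in neuron 2, with 953171 recovered fragments over single-transcript genes, and highest in the second library of neuroblast 3, with 16282071. The sums of FPKM over all genes also differed, at 456739 to 747038 in neuroblasts and 325851 and 343514 in neurons, so levels depend on how libraries are scaled.

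Of the 31 members, 22 reached 1 FPKM in at least 2 replicates and were tested. The other 9 were at or near 0. RabX2, RabX5, Rab9D and Rab9Db had 0 fragments in all 8 libraries, which allows up to 3 fragments in each. Rab9E, Rab9Fa and Rab9Fb had 1 or 2 fragments in a library of neuron 1 and none elsewhere, except that Rab9E had 1 in the other library of that replicate. Rab9, a regulator of traffic from the late endosome to the Golgi, had 0 to 8 fragments per library. Rab23, known in the fly for planar polarity of the wing, was the deepest of the 9, with 9 to 90 fragments in the neuroblast libraries and 1 to 3 in the neuron libraries. Its level was 0.833, 0.712 and 1.03 FPKM in the neuroblasts and 0.179 and 0.119 FPKM in the neurons. These ranges did not overlap. With no filter on low values the limma log2 difference of Rab23 was 0.69 (SE 0.143, adjusted p of 0.0101).

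Of the 9 untested members 6 lie on X, and of the 22 tested members 7 do. In the files' coordinates RabX2 (X, 10311518 to 10312252), Rab9D (X, 10483122 to 10484018), Rab9Db (X, 10516388 to 10517258), Rab9E (X, 10554988 to 10556057), Rab9Fa (X, 10844193 to 10845063) and Rab9Fb (X, 10845642 to 10846519) lie close together. The sources used here do not name the build. The sequences of the Rab9D, Rab9E and Rab9F genes were not compared here, and whether single fragments were assigned to the wrong gene among them was not tested. RabX2, Rab9E, Rab9Fa and Rab9Fb lie inside genes on the opposite strand.

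Across all tested genes, 63.3% passed limma at an adjusted p under 0.05. Of the 22 tested Rab genes 8 passed, 3 of them higher in neuroblasts (33.4% of all tested genes) and 5 higher in neurons (29.9% of all tested genes). The median log2 difference, neuroblast minus neuron, was -0.40 over the 22 Rab genes and 0.17 over all tested genes. The size of the difference was at most 1 on the log2 scale for 16 of the 22 Rab genes, or 72.7%, and for 41.8% of all tested genes. The replicates of the cell types did not overlap for 13 of the 22 Rab genes, against 78.6% of all tested genes.

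The split of calls depends on the scaling. As deposited, 3 Rab genes were called toward neuroblasts and 5 toward neurons. Upper quartile scaling gave 1 and 12, median ratio scaling 1 and 10, quantile normalization 1 and 10, and libraries brought to the same protein-coding sum 0 and 16, with 0 Rab genes at an unadjusted limma p under 0.05 toward neuroblasts there. The calls over all tested genes moved the same way, to 28.5% toward neuroblasts and 36.5% toward neurons with upper quartile scaling. Median ratio scaling called 29.7% and 35.7% of all tested genes, quantile normalization 31.7% and 31.0%, and the protein-coding sum 21.9% and 43.8%. Those scalings put the median log2 difference of all tested genes at -0.17, -0.11, 0.01 and -0.53. Taken relative to the median of all genes, the Rab median was -0.57 as deposited and between -0.70 and -0.60 with the 4 other scalings.

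**Figure D1:**
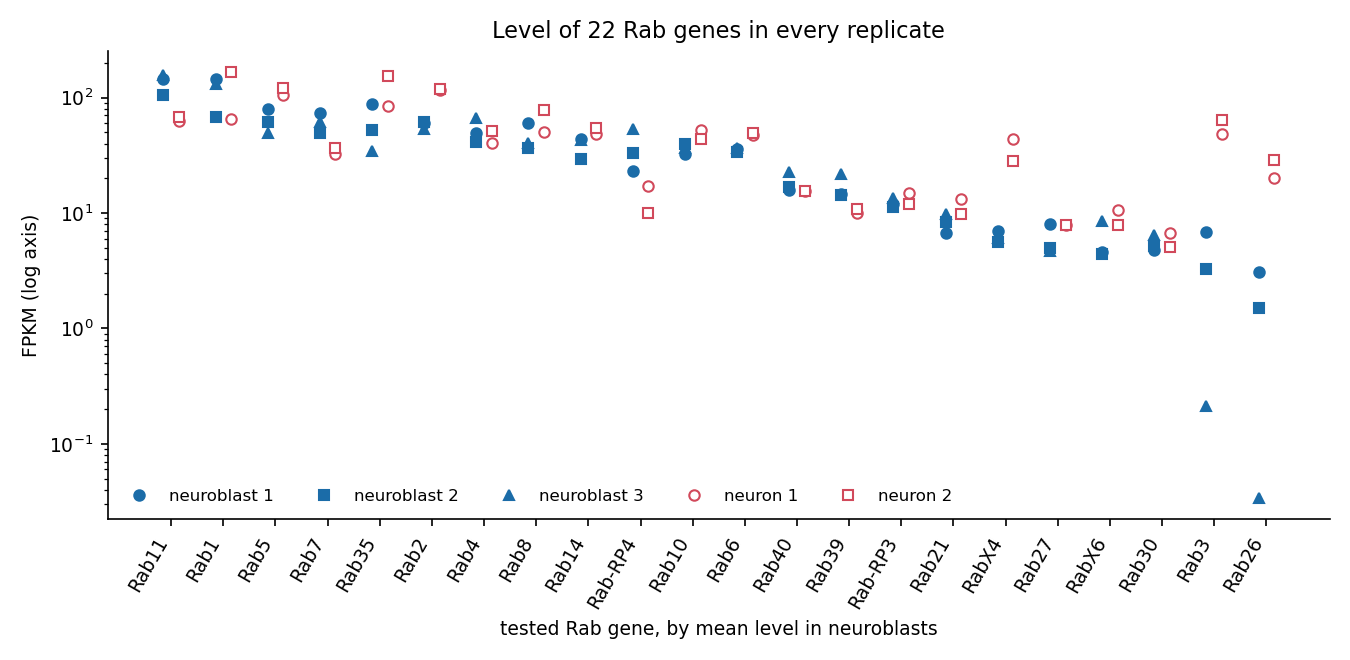
Level of the 22 tested Rab genes in each replicate, in FPKM on a log axis, ordered by the mean in neuroblasts (filled symbols, 3 replicates) with neurons beside them (open symbols, 2 replicates). Rab3 and Rab26 are the lowest in neuroblasts, at means of 3.47 and 1.53 FPKM, and spread most there, while Rab11, Rab1 and Rab5 are the highest.

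The largest differences among the 22 tested Rab genes were in 2 exocytic Rabs, Rab3 and Rab26, both toward neurons. Rab3, which sits on synaptic vesicles and in the fly shapes the protein make-up of active zones, stood at 6.90, 3.30 and 0.214 FPKM in neuroblasts 1, 2 and 3 and at 48.1 and 64.1 FPKM in neurons 1 and 2. Both neuron replicates were far above every neuroblast replicate, and neuroblast 3 was the lowest. The mean rose 16.1-fold from neuroblasts to neurons, and the limma log2 difference was -4.03 (SE 0.732, adjusted p of 0.00304). Rab26, which in mammals is found on secretory granules and synaptic vesicles, stood at 3.06, 1.51 and 0.0342 FPKM in neuroblasts and 19.9 and 29.0 FPKM in neurons. The groups did not overlap, and the order of the neuroblast replicates was that of Rab3. The limma log2 difference of Rab26 was -3.51 (SE 0.570, adjusted p of 0.00201), with a ratio of means of 15.9.

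The Rab3 locus (2R, 6608833 to 6616695) shares 2009 of 7863 bases with CG12309 on the opposite strand, which stood at 0 to 0.134 FPKM in neuroblasts and 6.07 and 3.20 in neurons. Rab3 rested on 10 to 176 fragments per neuroblast library and 744 to 982 per neuron library. The estimated fragments of Rab26 were 1.0 and 3.0 in the libraries of neuroblast 3 and 231.4 to 237.8 in the neuron libraries. In the authors' deposited table, which lists genes with an adjusted p under 0.01 and holds 24.9% of the genes in the files, 3 of the 31 members are found: Rab3, Rab26 and RabX4, all with the higher mean in neurons. The authors' deposited table gives Rab3 a log2 ratio of neuroblast to neuron of -4.17, Rab26 one of -3.86 and RabX4 one of -2.40.

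The Rab3 and Rab26 values moved with the neuron markers between the neuroblast replicates. Rab3 stood at 12.3%, 5.89% and 0.382% of its neuron mean in neuroblasts 1, 2 and 3, and Rab26 at 12.5%, 6.19% and 0.14%. The sum of the 9 neuron markers stood at 15.5%, 8.28% and 1.57%, and single markers ranged from 10.4% to 28.5%, from 4.78% to 18.4% and from 0.0668% to 5.99%. The part of neuronal RNA in the neuroblast levels of these genes was not tested. Without neuroblast 1 the limma log2 difference was -4.63 for Rab3 and -3.96 for Rab26, and without neuroblast 3 it was -3.28 and -2.97. Both genes were called under every alternative run.

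RabX4 (3R, 20652387 to 20653691) did not follow this order. It stood at 7.03, 5.58 and 6.04 FPKM in the neuroblasts and 43.4 and 28.3 FPKM in the neurons, and the groups did not overlap. In the neuroblasts it was at 19.6%, 15.6% and 16.8% of its neuron mean, with 34 to 227 fragments per library. The limma log2 difference was -2.33 (SE 0.306, adjusted p of 0.00110), and it was called under every alternative run.

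**Figure D2:**
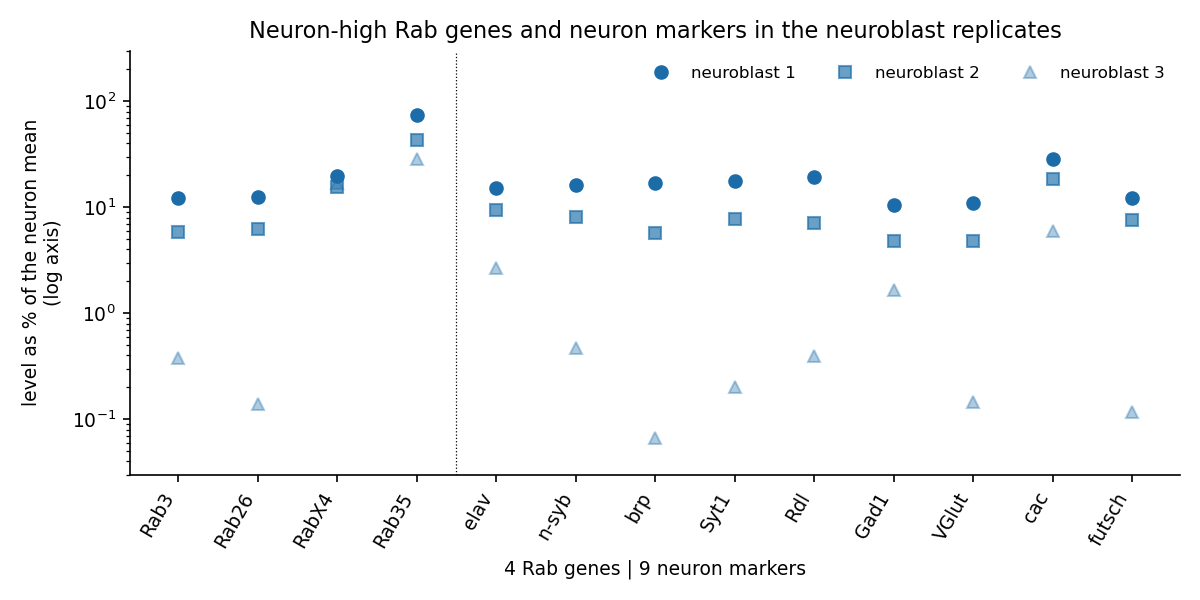
Level in each neuroblast replicate as a percentage of the neuron mean, on a log axis, for 4 Rab genes (left of the dotted line) and the 9 neuron markers (right). Rab3 and Rab26 are highest in neuroblast 1 and lowest in neuroblast 3, as is the marker sum, whereas RabX4 stays between 15.6% and 19.6%.

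The other exocytic Rabs did not pass the test. Rab8, a regulator of traffic from the Golgi to the plasma membrane, stood at 60.7, 36.9 and 40.5 FPKM in neuroblasts and 50.8 and 77.8 in neurons, overlapping ranges. Its limma log2 difference was -0.47, with a 95% interval from -1.24 to 0.29 and an adjusted p of 0.233. Rab10, which in fly follicle cells directs basement membrane proteins to the basal side, stood at 32.8, 39.4 and 36.5 FPKM against 52.1 and 43.4. Those ranges did not overlap, but the limma log2 difference of -0.39 had an interval from -0.96 to 0.18. Rab27, a secretory vesicle Rab, stood at 8.00, 4.97 and 4.72 FPKM against 7.90 and 7.87. Neuroblast 1 was at the level of the neurons, and the interval ran from -1.16 to 0.36. Rab40, whose protein carries a SOCS box of ubiquitin ligases, stood at 16.0, 16.7 and 22.7 FPKM against 15.6 in each neuron replicate. The neuroblasts lay just above both neuron replicates, with an interval from -0.45 to 0.87, and the sign of the difference turned with upper quartile, median ratio and quantile scaling and with the protein-coding sum. As a group the 6 exocytic Rabs summed to 127.4, 102.7 and 104.7 FPKM in neuroblasts and 194.3 and 237.6 in neurons. This sum includes Rab3 and Rab26, whose means were 3.473 and 1.535 FPKM in neuroblasts and 56.07 and 24.44 in neurons. The other 4 were not called.

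Endosomal Rabs went in both directions. Rab11, the recycling endosome Rab that in the fly also returns the Notch ligand Delta to the surface of sensory organ precursor daughters, had the highest mean of the Rab genes in neuroblasts, with Rab1 slightly above it in neuroblast 1. It stood at 143.5, 105.4 and 156.7 FPKM in neuroblasts and 62.3 and 68.1 FPKM in neurons, with no overlap. The limma log2 difference was 1.02 (SE 0.268, adjusted p of 0.0136) and the ratio of means 2.07. Rab7, of the late endosome and lysosome, stood at 74.2, 49.6 and 61.9 FPKM against 32.6 and 36.8, again with every neuroblast replicate above both neuron replicates. Its limma log2 difference was 0.80 (SE 0.265, adjusted p of 0.0328). Rab5, which controls early endosome fusion, went the other way, at 80.05, 61.3 and 49.5 FPKM in neuroblasts and 104.9 and 122.0 in neurons. The groups did not overlap, and the limma log2 difference was -0.85 (SE 0.281, adjusted p of 0.0331).

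The Rab11 and Rab7 calls depended on the scaling, and all 3 calls were lost in some fits with a replicate left out. A fit without neuron 1 or neuron 2 leaves a lone neuron replicate. The SE of Rab11 then rose from 0.268 to 0.452 and 0.444, and that of Rab7 from 0.265 to 0.433 and 0.428. For Rab5 the SE rose from 0.281 to 0.452 and 0.445. Rab11 was not called with quantile normalization at 0.52, with the protein-coding sum at 0.26, or without neuron 1 or neuron 2, at 0.96 and 1.09 with limma adjusted p-values of 0.120 and 0.0839. Rab7 was not called with any other scaling, at 0.05 to 0.49, nor without neuroblast 1 at 0.66, without neuron 1 at 0.71 or without neuron 2 at 0.89. Rab5 was called with each of the 4 scalings, at -1.16 to -1.61, and not without neuroblast 2, neuron 1 or neuron 2, at -0.84, -0.96 and -0.74. Relative to the median of all genes, Rab11 stood at 0.51 to 0.86, Rab7 at 0.42 to 0.63 and Rab5 at -1.42 to -1.02 over the deposited and the 4 other scalings.

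The ratio of 2 Rab genes within a replicate needs no scaling between libraries. The FPKM of Rab11 over that of Rab5 was 1.79, 1.72 and 3.17 in neuroblasts 1, 2 and 3 and 0.594 and 0.558 in neurons 1 and 2. Rab7 over Rab5 was 0.927, 0.809 and 1.25 in the neuroblasts and 0.311 and 0.302 in the neurons. Rab11 over Rab7 was 1.93, 2.13 and 2.53 in the neuroblasts and 1.91 and 1.85 in the neurons. The first and second of these ratios were well apart between the cell types. That follows from the opposite directions of their genes given above and is no separate support. The third was nearly the same in neuroblast 1 as in the neurons. Rab11 over Rab35 was 1.62, 2.02 and 4.56 in the neuroblasts and 0.733 and 0.441 in the neurons. Rab2 over Rab1 overlapped, at 0.411, 0.905 and 0.411 in the neuroblasts and 1.77 and 0.711 in the neurons.

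Rab35, an endocytic recycling Rab that in fly cells also takes part in cytokinesis, had the highest mean of the Rab genes in neurons, though Rab2 and Rab5 were above it in neuron 1 and Rab1 in neuron 2. It stood at 88.6, 52.2 and 34.4 FPKM in neuroblasts and 85.0 and 154.5 FPKM in neurons, so neuroblast 1 lay above neuron 1. The limma log2 difference of -1.07 (SE 0.447) had an interval from -2.12 to -0.01 and an adjusted p of 0.0723. Its neuroblast replicates had the same order as the neuron markers, at 74.0%, 43.6% and 28.7% of the neuron mean. Rab35 passed without neuroblast 1, at -1.41 (limma adjusted p of 0.0114), and also with upper quartile scaling at -1.44, median ratio scaling at -1.38, quantile normalization at -1.57 and the protein-coding sum at -1.82.

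The remaining endosomal Rabs were not called. Rab4, of fast recycling, stood at 49.2, 41.2 and 66.8 FPKM in neuroblasts and 40.7 and 51.1 in neurons. Its interval ran from -0.51 to 0.86, and its sign turned with each of the 4 scalings, to -0.58 with a limma adjusted p of 0.0394 with the protein-coding sum. Rab14, which acts between early endosome and Golgi, stood at 43.4, 29.5 and 43.0 FPKM against 47.9 and 54.1, with an interval from -1.05 to 0.23. Rab21, an endosomal Rab known for integrin traffic in mammals, stood at 6.66, 8.31 and 9.84 FPKM against 13.3 and 9.80, with an interval from -1.17 to 0.29. Both neuron replicates were above every neuroblast replicate for Rab14, while neuroblast 3 and neuron 2 were level for Rab21.

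**Figure D3:**
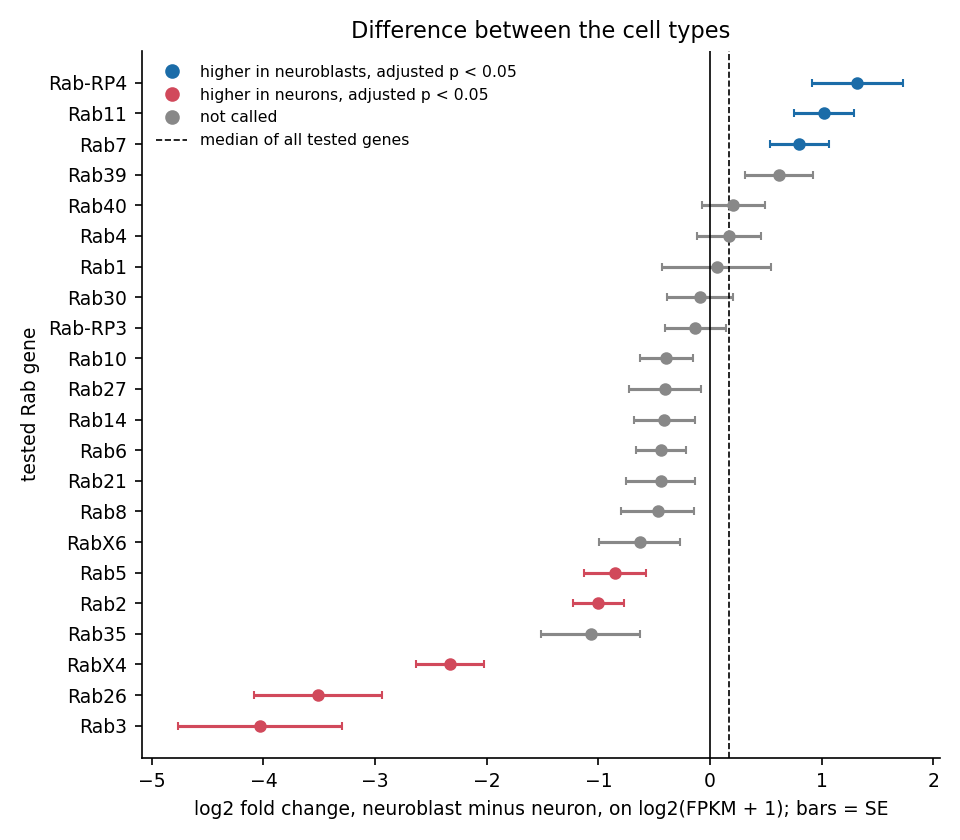
Difference between neuroblasts and neurons for each tested Rab gene on the log2(FPKM + 1) scale, with its SE from limma. Blue and red points passed an adjusted p under 0.05, toward neuroblasts (3 genes) and toward neurons (5 genes), grey points did not, and the dashed line is the median of all tested genes at 0.17.

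Among the Rabs of the endoplasmic reticulum and Golgi, 1 rose toward each cell type. Rab2, a Golgi Rab that in the fly also acts in fusion with lysosomes, stood at 59.7, 61.3 and 53.5 FPKM in neuroblasts and 115.7 and 118.4 FPKM in neurons. The replicates of each cell type were close together and the cell types well apart, and the limma log2 difference was -1.0 (SE 0.226, adjusted p of 0.00753). It was not called without neuron 1 or neuron 2, at -1.02 and -0.98, where each leaves a lone neuron replicate. Its locus shares 242 of 3215 bases with CG3409 on the opposite strand, which stood at 25.0 to 44.4 FPKM in neuroblasts and 14 and 16.9 in neurons, the other direction.

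Rab-RP4 (Rab18), which in mammals is found on lipid droplets and the endoplasmic reticulum, stood at 23.2, 33.4 and 53.6 FPKM in neuroblasts and 17.3 and 10.1 FPKM in neurons. Every neuroblast replicate was above both neuron replicates, with neuroblast 3 more than the others. The limma log2 difference was 1.32 (SE 0.411, adjusted p of 0.0262). It was not called with upper quartile scaling at 0.96, median ratio scaling at 1.02 or the protein-coding sum at 0.59, nor without neuroblast 2 at 1.35 or neuron 2 at 0.96. The order of its neuroblast replicates was the reverse of that of the neuron markers, and the part of neuronal RNA in this was not tested.

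Rab1, the regulator of transport out of the endoplasmic reticulum, varied more within the cell types than between them. It stood at 145.4, 67.7 and 130.2 FPKM in neuroblasts and 65.2 and 166.5 FPKM in neurons. Neuroblast 2 and neuron 1 were low and the other replicates high. The limma log2 difference was 0.06, with an interval from -1.10 to 1.22. Among the 22 Rab genes, Rab1 had the largest log2 difference between neuroblasts 1 and 2, at 1.09, and between neurons 1 and 2, at 1.34, while no technical pair differed by more than 0.432 for any Rab gene.

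The other Rabs of this group did not pass. Rab6, a Golgi Rab, stood at 35.6, 34.0 and 36.9 FPKM in neuroblasts and 47.8 and 49.2 in neurons. These groups did not overlap, with a limma log2 difference of -0.44, an interval from -0.97 to 0.09 and an adjusted p of 0.126. Rab39 stood at 14.6, 14.2 and 21.6 FPKM against 9.97 and 10.8, also without overlap, with an interval from -0.10 to 1.33. The sign of Rab39 turned with the protein-coding sum, at -0.10. RabX6 stood at 4.62, 4.37 and 8.47 FPKM against 10.7 and 7.94, with an interval from -1.49 to 0.22. Its locus shares 466 of 1433 bases with Vti1 on the opposite strand. Rab-RP3 (Rab19) stood at 11.9, 11.3 and 13.4 FPKM against 14.9 and 12.0, and Rab30 at 4.77, 5.21 and 6.48 against 6.73 and 5.12. The replicates of both genes overlapped, with intervals from -0.78 to 0.52 and from -0.79 to 0.61.

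With the protein-coding sum, Rab6, Rab8, Rab10, Rab14, Rab21, Rab27, Rab30, Rab35, Rab-RP3 and RabX6 passed toward neurons beside Rab4 and the 5 genes called as deposited. Of these 10 genes, 7 also passed with upper quartile scaling and 5 with median ratio scaling.

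Neuroblasts 1 and 2 and neuron 1 were run on a shared flow cell, per the file names, while neuroblast 3 and neuron 2 were run on others. On the shared flow cell, with a lone neuron replicate, the limma log2 difference was -3.07 for Rab3 and -2.71 for Rab26. It was -2.61 for RabX4, -0.92 for Rab2 and -1.09 for RabX6. Rab5 at -0.58, Rab11 at 0.97, Rab7 at 0.88 and Rab-RP4 at 0.66 kept their signs. The lone neuron replicate was assumed to vary like the neuroblasts, so calls from this fit are not counted here.

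The order of the levels differed between the cell types. In neuroblasts it ran Rab11, Rab1, Rab5, Rab7, Rab35 and Rab2, from a mean of 135.2 ± 26.7 FPKM to 58.2 ± 4.15 (SD, n = 3), and the replicates of each neighbouring pair in it overlapped. In neurons it ran Rab35, Rab2, Rab1, Rab5 and Rab11, from 119.7 ± 49.1 to 65.2 ± 4.07 FPKM (SD, n = 2), and the last step was the only one of these with replicates apart. Rab3 was 21st in neuroblasts and 7th in neurons, and Rab7 was 4th and 13th. Over the 22 genes, the replicates of 18 of the 21 neighbouring pairs overlapped in neuroblasts and those of 16 in neurons.

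All 31 members together summed to 920.7, 688 and 858.1 FPKM in the neuroblasts and 914.3 and 1142 FPKM in the neurons. That was 0.167%, 0.151% and 0.115% of all FPKM in the neuroblasts and 0.281% and 0.333% in the neurons. As a share of this Rab sum, Rab11 made up 15.6%, 15.3% and 18.3% in the neuroblasts and 6.82% and 5.96% in the neurons. Rab7 made up 7.20% to 8.06% in neuroblasts and 3.57% and 3.22% in neurons. Rab3 made up at most 0.75% in neuroblasts and 5.25% and 5.61% in neurons, Rab2 6.23% to 8.91% and 12.6% and 10.4%, and Rab5 5.77% to 8.91% and 11.5% and 10.7%. None of these 5 shares overlapped between the cell types. All 5 belong to called members whose FPKM was already apart, so this is no separate support. Each share also moves when other members move.

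**Figure D4:**
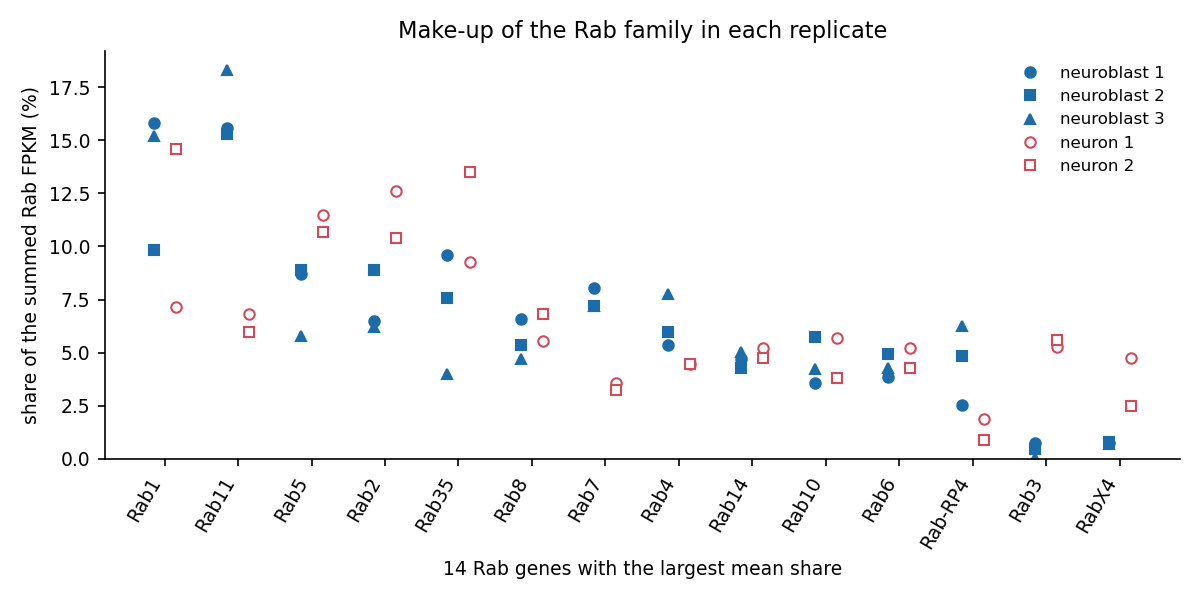
Share of the summed Rab FPKM, in percent, taken by the 14 Rab genes with the largest mean share, with each replicate as a point (filled, neuroblasts, 3 replicates; open, neurons, 2 replicates). The Rab11 share is 15.3% to 18.3% in neuroblasts and 5.96% to 6.82% in neurons.

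The regulators and effectors of the Rabs were read from 7 lists, of which 94 genes were found and all 94 tested. Of these 13 were higher in neuroblasts and 19 higher in neurons, where 33.4% and 29.9% of all tested genes were called, with a median log2 difference of -0.14 against 0.17 over all tested genes. The same all-gene shares stand behind the counts of each list that follow. Upper quartile scaling gave 6 and 33, median ratio scaling 7 and 31, quantile normalization 10 and 27, and the protein-coding sum 0 and 47, against the all-gene shares given above for each scaling. With the last, 3 genes had an unadjusted limma p under 0.05 toward neuroblasts and 53 toward neurons.

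Of 18 GEF genes, 2 rose toward neuroblasts and 6 toward neurons. Toward neurons, sprint (spri), an exchange factor for Rab5, stood at 3.75, 2.99 and 0.257 FPKM in neuroblasts and 61.0 and 50.1 in neurons, a limma log2 difference of -4.29 with an adjusted p of 0.00118. The Rab3 exchange factor gene rab3-GEF stood at 1.14, 0.688 and 0.0205 FPKM against 15.5 and 12.3, with -3.26 and an adjusted p of 0.000805 from limma. Both had the order of the neuron markers across the neuroblast replicates. Crag, an exchange factor for Rab10 and Rab11 in the fly, stood at 14.4, 14.2 and 11.3 FPKM against 41.1 and 31.6, a limma log2 difference of -1.38 with an adjusted p of 0.00432. Toward neuroblasts, CG11926, which the reference names Mon1 and which with Ccz1 activates Rab7, stood at 19.8, 20.3 and 34.7 FPKM against 11.1 and 11.02, a limma log2 difference of 1.06 with an adjusted p of 0.0254. CG10153, the TRAPP subunit gene Trs31, stood at 33.6, 27.1 and 81.2 FPKM against 17.0 and 14.4. In each of these 5 genes the groups did not overlap.

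Of 14 GAP genes, limma called 6 toward neurons and 0 toward neuroblasts, and 4 had an unadjusted limma p under 0.05 toward neuroblasts. CG11727 (Evi5), a GAP for Rab11 in fly border cells, stood at 14.1, 13.7 and 4.68 FPKM in neuroblasts and 58.9 and 64.9 in neurons, a limma log2 difference of -2.54 with an adjusted p of 0.00307. CG5337 (TBC1D16) stood at 4.29, 2.69 and 2.48 FPKM against 21.1 and 15.3. Whacked (wkd), which acts on Rab35 in fly trachea, stood at 4.22, 3.8 and 5.01 FPKM against 14.7 and 13.2, and did not follow the order of the markers. The limma adjusted p was 0.00153 for CG5337 and 0.00366 for wkd.

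Of 5 genes for Rab carriers and prenylation only betaggt-II, the beta subunit of the geranylgeranyl transferase, was called, at 21.9, 19.9 and 30.3 FPKM in neuroblasts and 9.89 and 7.77 in neurons, with a limma adjusted p of 0.00738. Of 22 endosomal and lysosomal effectors and tethers 3 were higher in neuroblasts, the retromer gene Vps26, the endosomal sorting gene Hrs and the sorting nexin gene CG2774 (Snx1), by 0.78, 0.80 and 0.80 on the log2 scale. Their adjusted p-values from limma were 0.0249, 0.0328 and 0.0479. CG6613 (Plekhm1), a Rab7 effector, was higher in neurons, at 1.74, 1.03 and 1.24 FPKM against 3.40 and 4.22.

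Of 22 Golgi and endoplasmic reticulum tethers 6 were higher in neuroblasts and 2 in neurons. Grasp65, a Golgi matrix gene, stood at 40.5, 35.6 and 50 FPKM in neuroblasts and 17.3 and 15.4 in neurons, and p115, a tether that binds Rab1, at 30.0, 30.0 and 43.3 against 17.0 and 13.7. The gene mit(1)15 (Zw10) stood at 52.6, 74.5 and 97.6 FPKM against 29.1 and 19.3, and besides its tethering complex its product is a kinetochore protein. The golgin genes Gmap and CG3493 (Golgin245) were higher in neurons, with log2 differences of -1.0 and -0.85 and limma adjusted p-values of 0.0148 and 0.0463.

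Of the 8 exocyst genes limma called 0 in either direction, with 1 at an unadjusted limma p under 0.05 in each direction. Of 5 exocytic effectors of the Rab3 and Rab27 kind 4 were higher in neurons and 1 in neuroblasts. The active zone gene Rim stood at 3.75, 1.68 and 0.0598 FPKM in neuroblasts and 20.6 and 26.7 in neurons, and rabphilin (Rph) at 4.01, 2.82 and 0.659 against 32.4 and 28.6, both in the order of the neuron markers. CG34349 (stac) stood at 0.726, 0.994 and 0.389 FPKM against 4.52 and 3.21. The gene toward neuroblasts was bitesize (btsz), a synaptotagmin-like protein gene, at 15.5, 17.8 and 12.0 FPKM against 7.93 and 8.01, with a limma log2 difference of 0.83 and an adjusted p of 0.0416.

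Of the 22 regulators and effectors named here, 9 were called under every alternative that could be fitted, all toward neurons: spri, rab3-GEF, Crag, CG11727, CG5337, wkd, Rim, Rph and CG34349. CG34349 could not be fitted under 4 of the alternatives. It stayed under 1 FPKM in the neuroblasts, and rab3-GEF reached that level in neuroblast 1 alone among them. Both genes therefore passed the filter only through the neurons, where they are high, and their place in this list is no separate support. All 10 named genes toward neuroblasts lost the call with the protein-coding sum. Vps26, Hrs, CG2774 and btsz lost it with each of the 4 scalings, with limma adjusted p-values of 0.162, 0.123, 0.120 and 0.237 with upper quartile scaling, and CG10153 lost it there too. CG2774, CG10153 and btsz also lost the call with no filter on low values, btsz with an adjusted p of 0.0532. Without neuron 2, 9 of the 10 lost it, and without neuron 1 it was 6. Toward neurons, CG6613, Gmap and CG3493 lost the call without either neuron replicate, and CG6613 also with quantile normalization. CG3493 lost it in more fits: with 0.1 in place of 1 added to the FPKM, with no filter, and without neuroblast 1 or neuroblast 2. A term for the replicate number in the fit also removed the calls of CG3493 and Gmap.

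**Figure D5:**
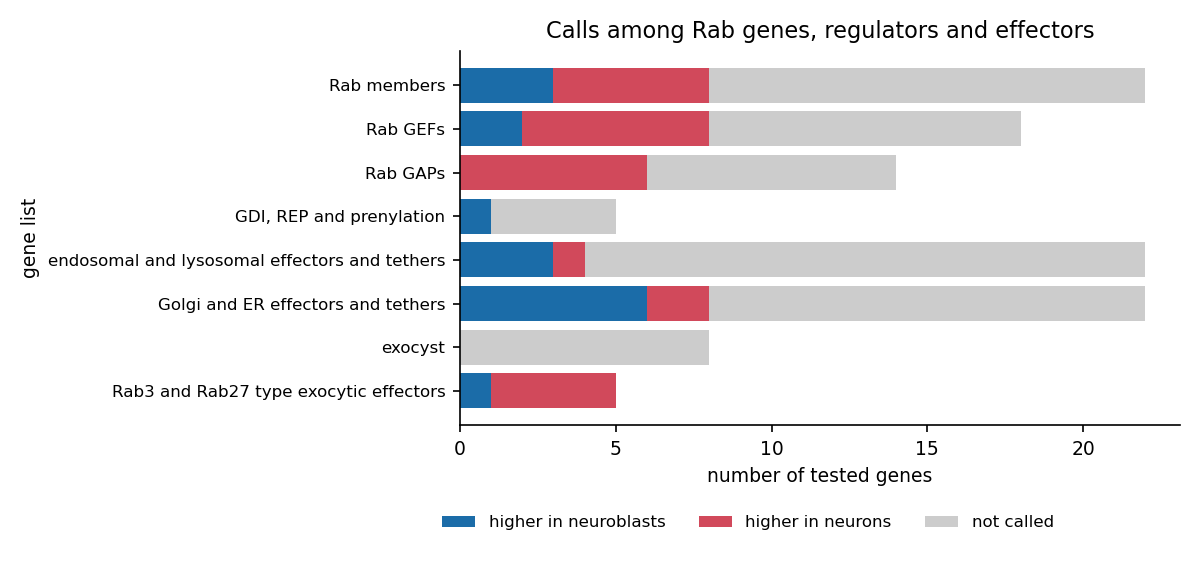
Number of tested genes in each list that passed limma at an adjusted p under 0.05 toward neuroblasts (blue), toward neurons (red) or not at all (grey). Of the 8 exocyst genes 0 passed, and of the 5 exocytic effectors all passed, 4 of them toward neurons.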

How the data were processed

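Every library has its own Cufflinks file, which lists FPKM, confidence bounds and status for each gene per the file headers, and the authors normalized FPKM to transcript length and mapped fragments. Without roles, the submitters' processing notes name the authors' tools as Cufflinks 1.3.0, TopHat 1.4.1, BWA 0.6.1, DESeq 1.8.3 and HTSeq. The authors' deposited table gives mean signal per cell type, their ratio (fold), its log2, p-values and adjusted p-values for neuroblast over neuron, per its own columns. Neither the genome build nor the use of strand in counting is given in the sources used here, which leaves genes that overlap on opposite strands uncertain. The members and lists were chosen with earlier results of these data known.

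Technical replicates were averaged as log2(FPKM + 1), giving 3 neuroblast and 2 neuron replicates; levels printed are mean FPKM of a replicate's libraries. The test was limma 3.58.1 (R 4.3.3) with a trended prior variance, two-sided, Benjamini-Hochberg adjusted over 7975 genes that reached 1 FPKM in 2 or more replicates. Log2 differences on this scale understate the change of low genes, and a ratio of means does not. Fragments were recovered from the Cufflinks upper bound, taken as 2 SD of a count above the value. They were whole within 0.05 for 91.3% to 91.9% of the values under 200 fragments in genes with a single transcript, and are estimates for other genes. They cover counting error only. Gene names came from a reference of another build, release 115, which matched 13575 of 14210 identifiers. All members had status OK. Named genes are all members and, from each list, up to 3 called in each direction by smallest adjusted p. No column of per-sample values went unmapped (0 columns).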

Additional observations from a re-analysis of the deposited data

How the results depend on the processing

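Calls for Rab3, Rab26 and RabX4 held under all 20 alternatives, with log2 differences from -4.83 to -3.07, -4.78 to -2.71 and -3.04 to -2.03. The 5 other called members each lost the call under some, Rab7 under 11 and Rab2 under 4. Members called toward neuroblasts (3) and neurons (5) became 1 and 12 with upper quartile scaling and 1 and 10 with median ratio or quantile scaling. They became 0 and 16 with the protein-coding total. The all-gene shares for these scalings are given above. As deposited, 2667 and 2381 of all 7975 tested genes were called. The replicate block, a term for the replicate number, gave 0 and 3 members, against 2047 and 1977 of all tested genes. Number 3 exists in neuroblasts alone, so the block takes up neuroblast 3 and its log2 differences equal those without neuroblast 3. A fold minimum of 1 on the log2 scale gave 2 and 3, against 2398 and 2063. An adjusted p under 0.01 gave 0 and 4, against 1833 and 1759. With the protein-coding sum 0 members had an unadjusted limma p under 0.05 toward neuroblasts. That was 2 with the block and 3 at the stricter threshold. Leaving out a neuroblast replicate gave 2 to 3 and 4 to 6 members, against 2481 to 2627 and 2146 to 2434 of 7919 to 7927 tested genes. Each fit without a neuron replicate, or on the shared flow cell, has a lone neuron replicate, and its calls are not counted here. Regulators and effectors (13 and 19) became 6 and 33 under upper quartile scaling and 7 and 31 under median ratio scaling. Quantile scaling left 10 and 27 of them, the protein-coding total 0 and 47. The block left 3 and 12, the fold minimum 8 and 12, and the adjusted p under 0.01 left 3 and 9. When a neuroblast replicate was dropped they were 10 to 13 and 13 to 23. The filter at 5 FPKM gave 19 and 18, no filter 9 and 18. The Rab median of -0.40 moved to -0.77, -0.71 and -1.14 with upper quartile, median ratio and protein-coding scaling, to -0.69 with quantile normalization, and to -0.25 over 27 genes with no filter. Signs turned only in members that were not called: Rab1 to -0.32, -0.26, -0.47 and -0.70, Rab4 to -0.21, -0.14, -0.21 and -0.58, and Rab40 to -0.15, -0.09, -0.07 and -0.52 with upper quartile, median ratio, quantile and protein-coding scaling, and Rab39 to -0.10 with the last. With the block Rab1 was -0.07 and Rab4 -0.02. With a replicate left out Rab1 ranged from -0.61 to 0.73, Rab4 from -0.02 to 0.33, Rab-RP3 from -0.27 to 0.01 and Rab30 from -0.26 to 0.08.

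The labels give both groups replicate numbers 1 and 2 and do not say whether a shared number marks a pair. The deviations of same-numbered samples from their group means correlated at -0.517 and -0.394. With 2 neuron replicates these deviations mirror each other, so the values cannot decide whether the numbers mark pairs. The causes of these changes were not tested, except that a fit without a replicate, on 1 flow cell or with the block has fewer residual degrees of freedom. A lone neuron replicate was assumed to vary like the neuroblasts. Neuron libraries were the shallowest, which limits the members near 0.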
